A study of Mus musculus with 8 samples.

Results

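The genes described here are those that make, destroy and read cyclic AMP inside the cell, the phosphodiesterases, the adenylyl cyclases, the subunits of protein kinase A (PKA) and the stimulatory G protein α subunit *Gnas*. They were chosen by gene symbol, and 41 of the 24063 genes in the tables matched: 21 catalytic phosphodiesterases, 3 accessory subunits of the photoreceptor phosphodiesterase, 10 adenylyl cyclases, 2 catalytic and 4 regulatory PKA subunits, and *Gnas*. The family was taken up because the comparison of GDNF with control had already been seen for *Pde2a*, so the values of that comparison are given as a description of the 41 genes and not as independent support for any of them.

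RNA was measured by sequencing of poly-A transcripts in tubuloids, tubule-like structures that grow from fragments of mouse kidney in Matrigel. The 4 GDNF cultures (numbered 6, 12, 17 and 22) received glial cell line-derived neurotrophic factor for 24 h at the start, and the 4 control cultures (3, 7, 14 and 21) did not. All 8 were then kept in the same growth factor medium, which holds HGF, EGF and bFGF, until RNA was taken on day 7. The labels give the donor kidneys as from postnatal day 7 to 10, where the study's methods give a younger range, and the genotype as Pkd2fl/fl Pax8rtTA TetOCre mTmG, so both groups carried the floxed *Pkd2* alleles, the *Pax8*-driven rtTA transactivator with its tetracycline-responsive Cre, and the membrane reporter. That Cre can act only in *Pax8*-expressing tubule epithelium and only with doxycycline, which the labels give for neither group. No source says which cultures share an animal, so p-values measure only the spread between these cultures.

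Total counts per culture, summed over transcripts, ran from 72991721 to 97490625. RNA of *Xist* marked control cultures 3 and 7 and GDNF cultures 6 and 12, and Y-linked RNA marked the other cultures, so each group held cultures of both kinds. Control 3 and GDNF 6 held some of both, with Y-linked RNA at 1.502 and 6.46 TPM. Summed tubule epithelial markers lay between 487 and 3751 in control in TPM, a unit scaled by transcript length and library size, and between 1114 and 1624 in GDNF cultures, while markers of single tubule segments were uneven, from *Aqp2* at a mean of 0.07 TPM and *Slc12a1* at 0.19 to *Slc5a2* at 8.88, *Calb1* at 11.5 and *Fxyd4* at 20.8. Stromal and mural markers summed to between 249 and 1767 TPM in control and between 296 and 1442 in GDNF cultures, with the lowest sums in control 3 and GDNF 6. Because these are bulk samples, fewer cells of a type and less RNA per cell cannot be told apart.

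Cyclic AMP is made from ATP by adenylyl cyclases, which Gsα, the product of *Gnas*, switches on below hormone receptors. It binds the regulatory subunits of PKA and frees the catalytic subunits, which phosphorylate channels, enzymes and the transcription factor CREB. Phosphodiesterases end the signal: the PDE4, PDE7 and PDE8 subfamilies are selective for cAMP, PDE5, PDE6 and PDE9 for cGMP, and PDE1, PDE2, PDE3, PDE10 and PDE11 take both. In the collecting duct this pathway carries the action of vasopressin on water transport, and in polycystic kidneys cAMP is known to promote fluid secretion and growth of the cyst epithelium.

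Promoter sequences are shown for 2 members, *Pde2a* and *Prkar1a*, each of which has several windows that differ. They are RefSeq windows of GRCm38.p6, 250 bases before to 50 bases after an annotated start, written 5′ to 3′ on the plus strand, and such windows were held for 32 of the 41 members. *Pde2a* (chr7:101421691-101512829) has starts far apart, and an upstream and a downstream window are given to show how unlike they are in base composition, with 3 CpG and 53.3% GC in the first and 29 CpG and 69.7% GC in the second. For *Prkar1a* (chr11:109649023-109669663) a window that holds the cAMP response element, TGACGTCA, is given with that element in capitals.
Pde2a, chr7:101421441-101421740: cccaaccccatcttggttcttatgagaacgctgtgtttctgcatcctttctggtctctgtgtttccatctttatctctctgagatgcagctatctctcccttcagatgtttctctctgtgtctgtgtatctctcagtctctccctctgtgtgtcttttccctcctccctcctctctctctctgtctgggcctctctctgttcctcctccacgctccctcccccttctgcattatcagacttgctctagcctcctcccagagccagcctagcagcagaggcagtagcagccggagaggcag
Pde2a, chr7:101451002-101451301: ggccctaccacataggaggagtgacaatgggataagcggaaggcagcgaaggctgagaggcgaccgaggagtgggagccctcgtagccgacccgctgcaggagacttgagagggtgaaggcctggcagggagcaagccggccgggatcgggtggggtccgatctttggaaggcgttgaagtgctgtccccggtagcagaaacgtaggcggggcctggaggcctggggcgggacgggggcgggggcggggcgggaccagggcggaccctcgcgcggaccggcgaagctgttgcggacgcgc
Prkar1a, chr11:109650699-109650998: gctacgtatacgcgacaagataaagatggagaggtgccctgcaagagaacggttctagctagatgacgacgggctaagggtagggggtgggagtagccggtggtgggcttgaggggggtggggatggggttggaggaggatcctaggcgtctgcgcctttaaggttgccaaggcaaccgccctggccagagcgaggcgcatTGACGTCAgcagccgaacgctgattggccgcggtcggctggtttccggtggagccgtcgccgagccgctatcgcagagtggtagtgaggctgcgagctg

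The first base of the *Prkar1a* element lay at position -49 from the start of the window shown. From the start of the other window that covers it, the position was 38, downstream. The 8-base element TGACGTCA, which reads the same on both strands, was found in 588 of 32851 promoter windows of all genes (1.79%) and in 2 of 72 windows of the family (2.78%), both of *Prkar1a* and both covering the same site. Its 5-base core, TGACG on either strand and including the full element, was found in 20.8% of all windows and in 19 of the 72 family windows (26.4%), which belong to 15 genes. These are matches of letters only, and no binding was measured.

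Levels are compared between genes on the TPM scale, which divides by transcript length, using for each gene its most abundant transcript. Of the 41 genes, 31 averaged at least 1 TPM in control and 32 in GDNF cultures. The family was led by *Gnas*, at 401 ± 45.5 TPM in control cultures (SD, n = 4), and by *Prkar1a*, the type Iα regulatory subunit of PKA, at 205 ± 31.2 TPM. *Pde6d*, which in spite of its name encodes a carrier of prenylated proteins, followed at 56.0 ± 8.39 TPM, and its control values did not overlap those of either PKA catalytic subunit. *Prkacb* stood at 31.5 ± 7.10 TPM and *Prkaca* at 22.2 ± 1.41, with no overlap between them. The highest catalytic phosphodiesterase, *Pde4b*, averaged 17.7 ± 9.03 TPM and the highest cyclase, *Adcy3*, 5.41 ± 2.06.

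**Figure D1:**
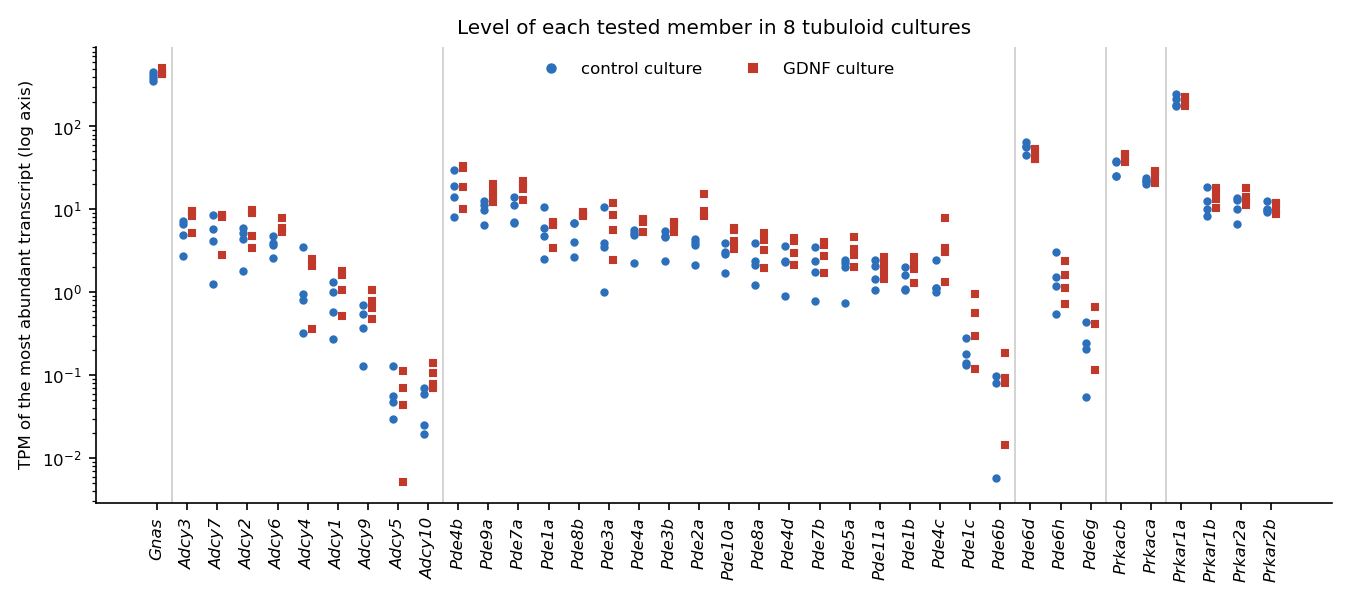
TPM (log axis) of the most abundant transcript of each of the 38 members that passed the filter on low counts, with blue circles for the 4 control and red squares for the 4 GDNF cultures and vertical lines between roles; values of 0 are not drawn. *Gnas* and *Prkar1a* lie above every other member in all 8 cultures, and 5 of the 10 cyclases average at least 1 TPM in control.

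In control cultures 10 members averaged under 1 TPM: *Adcy1*, *Adcy5*, *Adcy8*, *Adcy9*, *Adcy10*, *Pde1c*, *Pde6a*, *Pde6b*, *Pde6c* and *Pde6g*. *Adcy8*, a calcium-stimulated cyclase, had 0 counts in all 8 cultures, although a culture with an expected count under 3 can still give 0. *Pde6a*, *Pde6b* and *Pde6c*, the catalytic subunits of rod and cone phosphodiesterase, averaged 0.0074, 0.046 and 0.016 TPM in control. *Adcy8*, *Pde6a* and *Pde6c* did not pass the filter on low counts, which left 38 members in the test across 16557 genes.

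For the comparison between groups the counts were summed per gene and scaled by library size to CPM with the TMM method of edgeR, which sets most genes to no change. The choice of scale matters here. In TPM 78.8% of the tested genes had a higher mean after GDNF and the median log2 ratio was 0.42, with library size alone it was 0.25, and with TMM it was 0.03. CPM values below are therefore relative to the bulk of genes, and CPM is not compared between genes, since reads shared by transcripts of one gene entered the sum more than once.

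At an adjusted p of 0.05 (edgeR quasi-likelihood, Benjamini-Hochberg over all genes) 0 of the 38 members and 0% of all genes differed between GDNF and control. At an unadjusted p of 0.05, 1 member was higher after GDNF, where 9.25% of all genes were, and 3 were lower, where 12.9% of all genes were. The same 4 members had no overlap between the groups, 1 higher against 6.99% of all genes and 3 lower against 6.26%, so the counts over the family were near or under the background. DESeq2, used as an alternative, gave 14.7% of the genes to which it assigned an adjusted p as different, and 2 of the 21 members with such a value. Of the 38 members 27 had a log2 fold change above 0 and 11 below, with a median of 0.22 against 0.03 for all genes. The median was 0.06 without control 3 and -0.0060, against -0.03 for all genes, with an offset for the trend on transcript length.

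**Figure D2:**
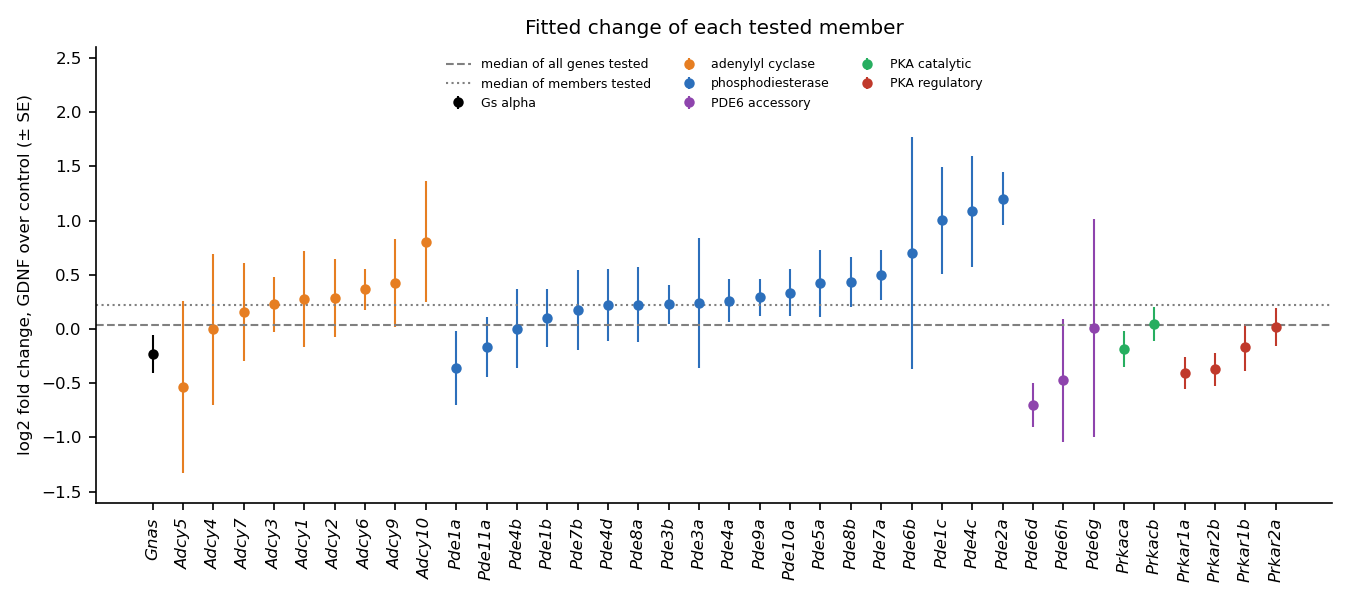
Log2 fold change (GDNF over control, edgeR with TMM) of the 38 tested members, ordered within each role, with bars for ± 1 SE. Phosphodiesterases (blue, median 0.26) and cyclases (orange, median 0.28) lie mostly above the dashed line for all genes and PKA regulatory subunits (red, median -0.27) mostly below it; the median of all members moves to -0.0060 with an offset for transcript length.

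*Pde2a* encodes a dual-specificity phosphodiesterase whose hydrolysis of cAMP is stimulated by cGMP. Its level was 38.1, 56.7, 47.5 and 48.5 CPM in control cultures 3, 7, 14 and 21, and 170.5, 86.6, 88.5 and 93.6 CPM in GDNF cultures 6, 12, 17 and 22. Every GDNF culture was above every control culture, and GDNF 6 stood far above the other GDNF cultures. The log2 fold change was 1.202 (SE 0.24), with an edgeR adjusted p of 0.167 and a DESeq2 adjusted p of 0.0068. Over all alternative settings the fold change lay between 0.81 and 1.40 and the adjusted p between 0.0068 and 0.381. Without GDNF 6 the log2 fold change was 0.91, and without both GDNF 6 and control 3, the cultures with the fewest stromal transcripts, it was 0.81. The ratio of group means was 1.44 on the log2 scale among cultures with *Xist* RNA and 0.92 among those with Y-linked RNA, with no overlap in either.

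GDNF 6 also had the highest sum of principal cell markers, 89.8 TPM, of which *Fxyd4* gave 69.3. The other GDNF cultures had 11.9 to 36.1 TPM and controls 7.07 to 31.1. GDNF 6 was highest for the loop and distal markers too, at 47.8 TPM, of which *Calb1* gave 43.2. For these the other GDNF cultures had 3.66 to 18.4 TPM and controls 1.93 to 15.0. The part of either segment's RNA in the *Pde2a* value was not tested. *Pde2a* is also known as an endothelial gene. Endothelial markers summed to between 39.5 and 133 TPM in control and between 75.1 and 162 in GDNF cultures. At an unadjusted edgeR p of 0.05, 2 of 8 tested markers, *Flt1* and *Tek*, were higher after GDNF, where 9.25% of all genes were. At an adjusted p of 0.05, 0 were. The tested markers went both ways. Log2 fold changes were 2.69 for *Tek*, 1.24 for *Tie1*, 0.81 for *Flt1* and 0.16 for *Plvap*. They were -0.15 for *Emcn*, -0.48 for *Esam*, -0.75 for *Kdr* and -1.11 for *Pecam1*. Of the 9 listed endothelial genes *Plvap* averaged 57.0 TPM, *Emcn* 18.2, *Flt1* 14.9 and *Esam* 1.67, and *Pecam1*, *Kdr*, *Tie1*, *Cdh5* and *Tek* averaged between 0.09 and 0.50. The part of endothelial RNA in the *Pde2a* values was not tested. In TPM *Pde2a* averaged 3.59 in control cultures (lowest 2.16, highest 4.43) and 10.5 in GDNF cultures (lowest 8.42, highest 15.5).

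*Pde6d* (chr1:86543012-86582785) measured 54.2, 30.5, 44.2 and 35.6 CPM in control cultures 3, 7, 14 and 21 and 29.6, 21.9, 28.8 and 21.02 CPM in GDNF cultures 6, 12, 17 and 22. The lowest control, culture 7, lay just above the highest GDNF culture. The log2 fold change was -0.70 (SE 0.21, edgeR adjusted p 0.167, DESeq2 adjusted p 0.029), and it stayed between -0.82 and -0.43 over the alternatives, with adjusted p between 0.029 and 0.381. In TPM the groups overlapped, at 44.8 to 65.1 in control and 40.0 to 52.8 in GDNF cultures.

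**Figure D3:**
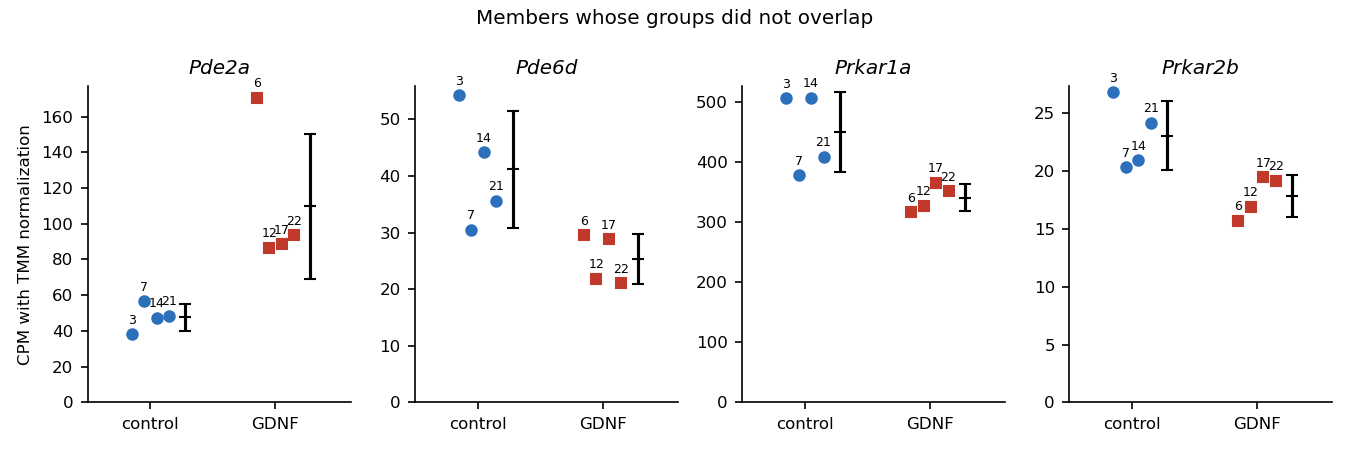
CPM with TMM normalization of the 4 members whose groups do not overlap, with each culture marked by its number and black bars for the mean ± SD of 4 cultures; the axes start at 0. *Pde2a* is higher in every GDNF culture, with GDNF 6 at 170.5 CPM, and *Pde6d*, *Prkar1a* and *Prkar2b* are lower.

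Among the PKA regulatory subunits, which hold the kinase inactive until cAMP binds, *Prkar1a* measured 507, 379, 508 and 409 CPM in control cultures 3, 7, 14 and 21 and 317, 328, 366 and 352 CPM in GDNF cultures 6, 12, 17 and 22. All GDNF values lay below all control values. The log2 fold change was -0.40 (SE 0.15, edgeR adjusted p 0.179), and over the alternatives it ranged from -0.49 to -0.18 with adjusted p from 0.0504 to 0.412. *Prkar2b* (chr12:31958450-32061648), the type IIβ subunit, measured 26.8, 20.4, 20.95 and 24.2 CPM in control and 15.7, 16.9, 19.5 and 19.2 CPM in GDNF cultures, in the same order. Here too the groups did not overlap, at a log2 fold change of -0.37 (SE 0.15, edgeR adjusted p 0.202). Both differences depend on the scale. In TPM *Prkar1a* averaged 205 in both groups and *Prkar2b* 10.4 in control and 10.6 in GDNF cultures, against a median gene that was higher by 0.42 on the log2 scale. With library size alone their log2 fold changes were -0.18 and -0.14, against 0.25 for the median gene, and neither reached an unadjusted p of 0.05.

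The remaining regulatory subunits gave overlapping groups. *Prkar1b* measured 37.9, 33.1, 61.4 and 38.2 CPM in control and 29.3, 35.3, 42.1 and 45.1 CPM in GDNF cultures, and *Prkar2a* 23.2, 25.7, 32.3 and 32.1 CPM in control and 24.4, 28.5, 36.2 and 25.8 CPM in GDNF cultures. Control 14 was the highest for *Prkar1b* and control 3 the lowest for *Prkar2a*. Of the catalytic subunits, which carry the kinase activity, *Prkaca* measured 86.2, 58.1, 62.6 and 63.1 CPM in control and 50.9, 63.9, 66.8 and 56.3 CPM in GDNF cultures. *Prkacb* measured 379, 409, 268 and 372 CPM in control and 346, 396, 353 and 380.4 CPM in GDNF cultures, all of the latter inside the control range. Within the regulatory pool *Prkar1a* made up 86.0 ± 1.41% of the TPM in control and 84.0 ± 1.05% in GDNF cultures, and the other 3 subunits had overlapping control ranges, from 6.68 to 18.8 TPM. The summed regulatory over summed catalytic TPM was 4.52 ± 1.08 in control and 3.56 ± 0.27 in GDNF cultures, with overlap, and control 14 alone stood at 6.10.

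*Gnas* (chr2:174284320-174346744), an imprinted locus with 9 listed transcripts, measured 4045, 2674, 3198 and 3243 CPM in control cultures 3, 7, 14 and 21 and 2833, 2720.4, 3154 and 2499 CPM in GDNF cultures 6, 12, 17 and 22. Control 3 was the highest and the groups overlapped, with a log2 fold change of -0.23 (SE 0.17, edgeR adjusted p 0.442). The library kit does not mark strand, so reads of the antisense transcript *Nespas* cannot be told apart from those of the exons it overlaps.

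The cyclases were led by 4 genes with overlapping control ranges. *Adcy3*, stimulated by Gsα and known from primary cilia, held 26.3 ± 3.78% of the cyclase TPM in control, *Adcy7* 21.6 ± 6.77%, *Adcy2* 20.6 ± 2.34% and *Adcy6*, inhibited by calcium and a main vasopressin-responsive form in the collecting duct, 19.6 ± 6.42%. In GDNF cultures the shares were 25.7, 20.8, 20.7 and 21.03%, each within the control SD. *Adcy3* measured 32.8, 59.1, 63.5 and 39.7 CPM in control and 38.997, 67.3, 67.3 and 54.5 CPM in GDNF cultures. *Adcy7* measured 26.6, 62.9, 129.7 and 81.2 CPM in control and 36.6, 98.1, 104 and 95.95 CPM in GDNF cultures, with the lowest values in control 3 and GDNF 6. *Adcy2*, activated by Gβγ together with Gsα, measured 6.59, 11.6, 15.8 and 12.7 CPM in control and 7.72, 10.03, 20.998 and 18.2 CPM in GDNF cultures. All 3 groups of values overlapped between GDNF and control. Of the 9 cyclases tested 7 had a log2 fold change above 0, beside a median of 0.03 over all genes. None reached an unadjusted edgeR p of 0.05. With an offset for transcript length *Adcy3*, *Adcy2* and *Adcy7* were at 0.0071, 0.11 and -0.14.

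In the phosphodiesterase pool the cAMP-selective PDE4 enzymes took the most TPM in control, 30.8 ± 3.57%, followed by PDE7 at 15.2 ± 3.86%, PDE9 at 12.9 ± 2.87%, PDE3 at 10.5 ± 2.51%, PDE8 at 9.08 ± 1.14% and PDE1 at 9.03 ± 1.80%. PDE6 catalytic subunits took 0.07 ± 0.06%. The control range of PDE4 stood apart from that of every other subfamily, whereas PDE7, PDE9 and PDE3 overlapped. PDE2 was the one subfamily whose share did not overlap between groups, at 5.004, 4.99, 3.34 and 4.73% in control cultures 3, 7, 14 and 21 and 14.5, 6.80, 6.31 and 6.29% in GDNF cultures 6, 12, 17 and 22. In GDNF cultures PDE4 took 28.6 ± 4.37% and PDE7 16.4 ± 3.25%.

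**Figure D4:**
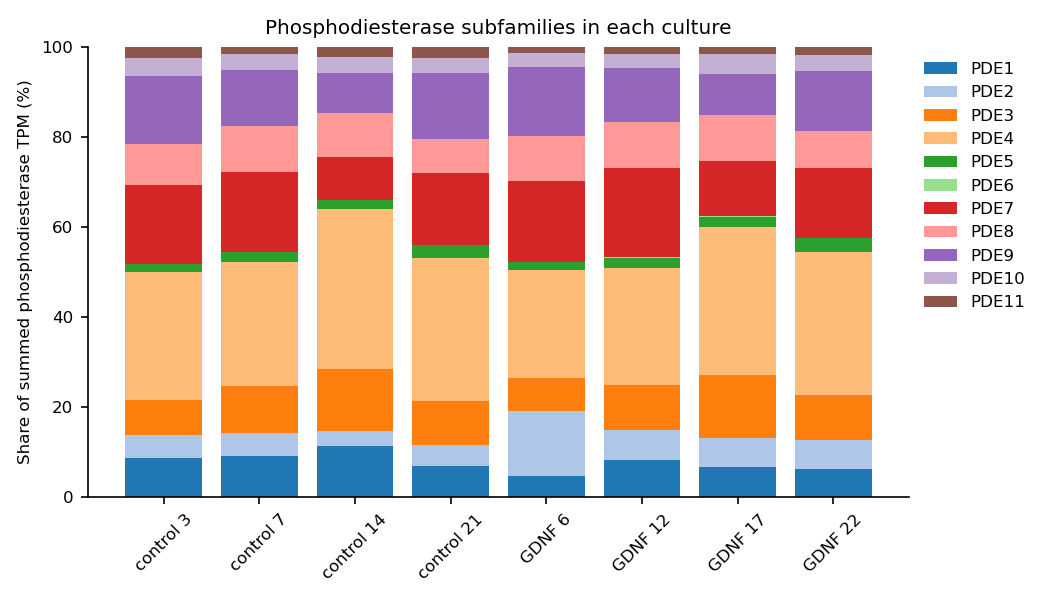
Share (%) of the summed phosphodiesterase TPM taken by each of the 11 subfamilies in each of the 8 cultures, with stacked bars that reach 100%. The PDE4 band is the widest in every culture, from 23.8% in GDNF 6 to 35.4% in control 14, and the PDE2 band is widest in GDNF 6, at 14.5%.

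*Pde4b*, the most abundant phosphodiesterase, measured 105, 123, 254 and 148 CPM in control cultures 3, 7, 14 and 21 and 74.2, 129, 218 and 209.5 CPM in GDNF cultures 6, 12, 17 and 22, and the spread within each group was wider than the difference. *Pde7a* measured 71.4, 107, 52.9 and 80.2 CPM in control and 115, 132, 78.7 and 113 CPM in GDNF cultures, with a log2 fold change of 0.50 (SE 0.23, edgeR adjusted p 0.237). *Pde8b*, a cAMP enzyme insensitive to the common inhibitor IBMX, measured 21.1, 38.8, 38.98 and 21.5 CPM in control and 42.4, 43.4, 40.6 and 36.2 CPM in GDNF cultures. GDNF 22 lay below control cultures 7 and 14. *Pde9a*, the cGMP enzyme of highest affinity, measured 23.2, 28.7, 25.5 and 30.4 CPM in control and 36.3, 30.6, 25.5 and 39.7 CPM in GDNF cultures. In each of *Pde7a*, *Pde8b* and *Pde9a* the groups overlapped, although the GDNF means were higher.

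*Pde1a*, activated by calcium and calmodulin, measured 33.9, 55.9, 106 and 43.02 CPM in control and 29.3, 52.8, 55.3 and 48.1 CPM in GDNF cultures, with control 14 the highest. *Pde3a*, a cAMP enzyme held back by cGMP, measured 3.64, 10.3, 28.2 and 8.61 CPM in control and 5.52, 11.8, 25.4 and 17.1 CPM in GDNF cultures, a range within each group wider than any difference between them. *Pde5a*, the cGMP enzyme that sildenafil blocks, measured 4.24, 8.36, 9.55 and 9.65 CPM in control and 7.17, 9.45, 11.1 and 14.9 CPM in GDNF cultures. *Pde10a* and *Pde11a* both act on cAMP and cGMP. *Pde10a* measured 22.03, 28.7, 36.99 and 25.6 CPM in control and 26.3, 31.1, 45.5 and 40.1 CPM in GDNF cultures, and *Pde11a* 2.58, 2.56, 4.33 and 3.40 CPM in control and 2.22, 2.55, 3.12 and 3.59 CPM in GDNF cultures. None of these 5 genes separated the groups.

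The largest fold changes after *Pde2a* belonged to genes with wide errors, *Pde4c* at 1.09 (SE 0.51) and *Pde1c* at 1.0006 (SE 0.50), both on the log2 scale. They were picked out after their values were seen. *Pde4c* was 2.80, 4.88, 2.24 and 2.08 CPM in control cultures and 13.3, 4.94, 2.16 and 5.10 CPM in GDNF cultures, where GDNF 6 was the highest and GDNF 17 lay below control 3. The 34 members other than the 4 without overlap had log2 fold changes from -0.53 to 1.09 and edgeR adjusted p from 0.237 to 0.998.

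The level of each member was also set against the amount of stromal RNA across the 8 cultures, a relation that does not use the group labels. The summed CPM of the 10 stromal and mural markers was compared on a log2 scale with the CPM of each of 36 members with no value of 0, and the same was done for 9 tubule epithelial markers, giving 72 relations tested by exact permutation, two-sided. The same relations were computed for every tested gene with no value of 0, and Benjamini-Hochberg adjustment was made over all 32021 of them. These relations were chosen after the data had been seen. At an adjusted p of 0.05 no relation passed, for 0 of the 36 members and 0% of all genes, in either direction and with either sum. At an unadjusted exact permutation p of 0.05, 16 of the 36 members had a positive relation to the stromal sum, where 9.46% of all genes did, and 0 had a negative one, where 7.91% of all genes did. The median r over the members was 0.67, against -0.08 over all genes. The members were read in the same 8 cultures, so their relations are not independent of one another. No relation was computed with an offset for transcript length.

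The 16 members were *Adcy1*, *Adcy2*, *Adcy3*, *Adcy4*, *Adcy7*, *Pde1a*, *Pde3a*, *Pde4b*, *Pde4d*, *Pde6h*, *Pde7b*, *Pde8a*, *Pde10a*, *Pde11a*, *Prkar1b* and *Prkar2a*. Their Pearson's r lay between 0.72 and 0.98 (exact permutation p 7.44e-05 to 0.0451, adjusted 0.0591 to 0.273) and Spearman's rank coefficient between 0.55 and 0.98 (exact permutation p 0.000397 to 0.171, adjusted 0.102 to 0.520). The highest was that of *Adcy4*, at 0.942, 1.70, 7.41 and 1.89 CPM in control cultures 3, 7, 14 and 21 and 0.647, 3.51, 4.31 and 3.46 CPM in GDNF cultures 6, 12, 17 and 22, beside stromal sums of 836, 1826, 4533 and 1680.2 CPM and of 695, 2716, 3159 and 2193 CPM. The order of *Adcy4* and the order of the stromal sum differed in a single exchange of neighbours. Its r was 0.98 (exact permutation p 7.44e-05, adjusted 0.0591) and its Spearman coefficient 0.98 (exact permutation p 0.000397, adjusted 0.102).

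Control 3 and GDNF 6, the cultures farthest from the median stromal sum, were then left out. The r that remained was 0.96 for *Adcy4*, 0.89 for *Adcy7* and 0.88 for *Pde3a*, whereas it was 0.13 for *Adcy1* and 0.38 for *Adcy2*, whose relations rest on those cultures. After the group means had been taken out r lay between 0.74 and 0.99 for the 16 members, and after the means of the kinds of culture between 0.51 and 0.98. Both quantities come from one library.

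**Figure D5:**
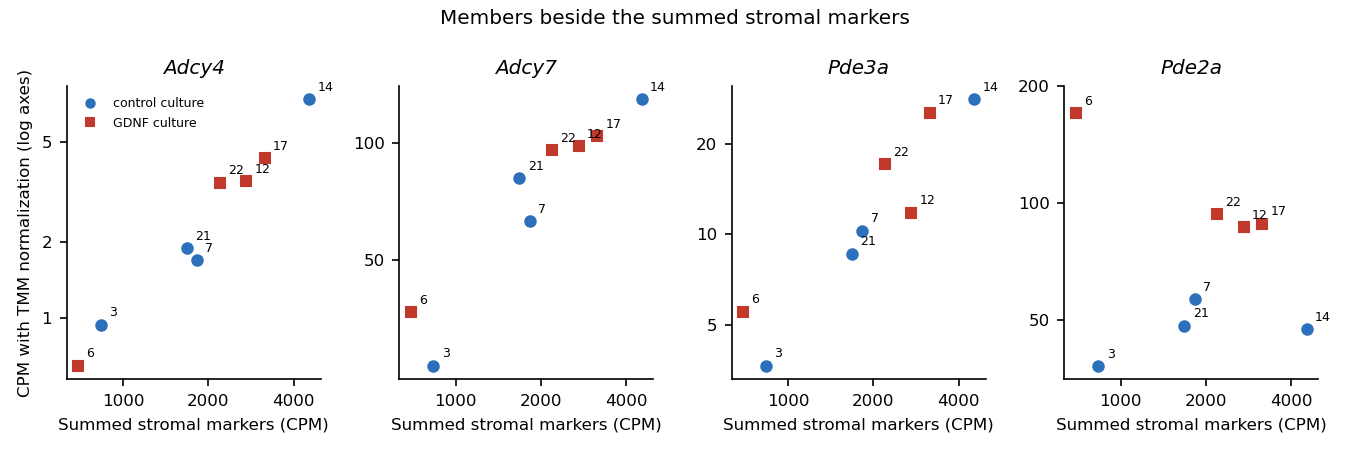
CPM of 4 members against the summed CPM of 10 stromal and mural markers (both axes log), one point a culture marked by its number, blue circles for control and red squares for GDNF. *Adcy4*, *Adcy7* and *Pde3a* are lowest in control 3 and GDNF 6 and highest in control 14, and *Pde2a* (r -0.20) separates the groups instead.

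With the epithelial sum 12 of the 36 members had a negative relation at an unadjusted exact permutation p of 0.05, where 7.67% of all genes did, and 0 had a positive one, where 10.3% of all genes did. For *Pde3a* r was -0.86 (exact permutation p 0.00818, adjusted 0.151), Spearman's coefficient was -0.93 (exact permutation p 0.00223, adjusted 0.126) and r without control 3 and control 21 was -0.89. For *Adcy3* r was -0.85 (exact permutation p 0.00737, adjusted 0.146), Spearman's coefficient was -0.76 (exact permutation p 0.0368, adjusted 0.277) and r without those cultures was -0.62. Over the 12 members r without those cultures ran from -0.94 to 0.40. It changed sign for *Pde8b*, from -0.77 to 0.40, and shrank to -0.24 for *Adcy9* and -0.37 for *Adcy1*. The 4 members whose groups did not overlap were not among those with an unadjusted p of 0.05 for either sum. Their r with the epithelial sum changed sign or size once control 3 and control 21 were left out, from -0.19 to 0.76 for *Pde2a*, from 0.30 to -0.55 for *Pde6d*, from 0.04 to -0.91 for *Prkar1a* and from 0.46 to -0.75 for *Prkar2b*.

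The other genes of the pathway were taken from lists by function, 140 genes of which 134 were in the tables and 113 were tested. None had an edgeR adjusted p of 0.05 or below, 10 were higher and 4 lower at an unadjusted p of 0.05, against 9.25% and 12.9% of all genes, and the median log2 fold change was 0.13. Of 22 tested genes listed as anchors, inhibitors and relatives of PKA, 4 were higher and 1 lower at that unadjusted p. Anchors place PKA near its substrates. *Akap13* was at 0.70 on the log2 scale (SE 0.21), and the nuclear anchors *Akap8* and *Akap8l* at 0.61 (SE 0.19) and 0.57 (SE 0.19). Each had an edgeR adjusted p of 0.167. Their DESeq2 adjusted p was 0.043, 0.0527 and 0.0679, where DESeq2 called 14.7% of the genes to which it assigned one. *Ezr*, which links membranes to actin, was the most abundant of this list, at 105 ± 56.2 TPM in control and 116 ± 28.5 TPM in GDNF cultures. Of 10 other cAMP effectors 1 was higher, *Rapgef4*, an exchange factor for Rap that cAMP opens directly, at 0.72 (SE 0.24, edgeR adjusted p 0.167).

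Of 11 genes around CREB 4 were higher and 1 lower at the unadjusted p, where 9.25% of all genes were higher and 12.9% lower. The coactivators *Ep300* and *Crtc1* were at 0.57 (SE 0.18) and 0.43 (SE 0.17). *Crem*, whose internal promoter yields the cAMP-induced repressor ICER, was at -0.47 (SE 0.19), from 849 ± 194 CPM in control to 613 ± 81.5 in GDNF cultures with no overlap, and its TPM was 36.8 ± 3.19 against 35.6 ± 5.07. Of 15 transcripts that cAMP is known to induce 0 were higher and 2 lower, *Crem* and the EGF receptor ligand *Areg* at -0.63 (SE 0.27, edgeR adjusted p 0.216). Of 13 further G proteins and regulators *Gnai3*, an inhibitory α subunit, was lower at -0.55 (SE 0.14, edgeR adjusted p 0.167, DESeq2 adjusted p 0.0197; in TPM 92.4 ± 9.74 in control and 83.6 ± 7.67) and *Gprasp1* higher at 0.47 (SE 0.17).

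None of 20 tested Gs-coupled receptors reached an unadjusted edgeR p of 0.05. *Calcrl*, the calcitonin receptor-like receptor, was the most abundant at 19.8 ± 12.6 TPM in control and 21.1 ± 8.92 in GDNF cultures. None of 12 genes of the cGMP arm, which feeds PDE2 and PDE3, did so either, and *Prkg2*, the type II cGMP-dependent kinase, was the most abundant, at 11.4 ± 2.33 and 14.02 ± 2.56 TPM. Among 7 tested genes of cyst fluid secretion none did, with the chloride channel *Cftr* at 0.69 (SE 0.36, edgeR adjusted p 0.283) and *Slc12a2*, the chloride uptake cotransporter, at 0.41 (SE 0.24). The cAMP exporters *Abcc4* and *Abcc5* stood at 0.25 (SE 0.30) and 0.44 (SE 0.20), short of that p. Of 4 relatives named outside the symbol rule *Pde4dip*, an anchor of PDE4D, stood at 0.38 (SE 0.19), again short of it. Its GDNF values, 109 to 130 CPM, did not overlap its control values, 58.6 to 104 CPM. Over all lists 10 of the 113 tested genes had no overlap, where 6.99% of all genes were higher without overlap and 6.26% lower.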

How the data were processed

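RNA was sequenced from 8 tubuloid cultures, 4 with and 4 without a GDNF pulse, with a SMART-Seq v4 poly-A kit as 75 bp paired reads on 2 lanes of 4 samples; which culture ran on which lane is not given in the sources used here. The authors aligned to mm10 (GRCm38) and counted; the submitters' processing notes name STAR, featureCounts and DESeq2 without versions or roles. The authors deposited 1 table per culture of 33068 RefSeq transcripts with a read count, an FPKM and a TPM value each. The deposited counts appear to enter every transcript of a gene that a read touches, and in 16 of the 19 members with several transcripts a second transcript held at least 90% of the first one's count, so isoforms were not compared and summed counts exceed the reads. The deposited FPKM values served to read transcript length.

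The members, the gene lists and the tests were chosen with earlier results of these data known. For the comparison of groups, counts of a gene's transcripts were added up. The quasi-likelihood test of edgeR 4.0.16 (R 4.3.3) followed filterByExpr and TMM scaling, with Benjamini-Hochberg adjustment over all genes tested; DESeq2 1.42.0 was an alternative. For each gene, deposited TPM of the transcript with most counts on average served for levels between genes. Per-culture values were printed for the most abundant member of each phosphodiesterase subfamily, the 3 most abundant cyclases, the PKA subunits, *Gnas*, and members with an unadjusted p of 0.05 or no overlap; of each pathway list, the 3 smallest p and the most abundant gene could be named. Relations across cultures used SciPy 1.17.1 over all 40320 orders, with adjustment over the same relations of all tested genes without a 0. Proteins and promoters of 9 members were not used here.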

Additional observations from a re-analysis of the deposited data

Results flagged for a closer look

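In each of the 76 groups of 4 cultures formed by the 38 tested members, the gap between an extreme culture and its nearest neighbour was set against the range of the group, and 3 groups passed the 95% limit of Dixon's test, where chance gives about 1 in 20. *Adcy4* was 7.41 CPM in control 14, against 0.942 to 1.89 in the rest of the controls. Control 14 also had the highest stromal marker sum. *Adcy7* was 36.6 CPM in GDNF 6, against 95.96 to 104 CPM in the rest of that group, and GDNF 6 had the lowest stromal marker sum. *Pde2a* was 170.5 CPM in GDNF 6, against 86.6 to 93.6 CPM in GDNF 12, 17 and 22. GDNF 6 had the highest principal cell marker sum, most of it *Fxyd4*, and the highest loop and distal marker sum, most of it *Calb1*.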

How the results depend on the processing

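No paired analysis was possible because the groups share no culture number. No gene and no member passed an adjusted p of 0.05 with edgeR under any setting tried, leaving out each culture included, while DESeq2 called 1346 genes and 2 members, *Pde2a* (1.18 on the log2 scale) and *Pde6d* (-0.71). With library size as the only scaling 8 members reached an unadjusted p of 0.05, 2 had no overlap, and 26 genes of the pathway lists reached that p; without control 3 and GDNF 6 together 2 members did. When each culture was left out in turn these counts ran from 2 to 8, from 4 to 8 and from 8 to 19, and the median log2 fold change of the members from 0.06 to 0.37; with an offset for transcript length the median was -0.0060 against -0.03 for all genes. The PDE4 share was 35.2% with TPM summed over transcripts. Of 21 members with values in each culture, 10 kept their direction in all 17 settings. The log2 fold changes of the others crossed 0 in at least 1 setting. With library size alone *Gnas* was 0.00061, *Pde11a* 0.043, *Prkaca* 0.054 and *Prkar1b* 0.045. With the length offset *Adcy7* was -0.14, *Pde10a* -0.056, *Prkacb* -0.14, *Prkar2a* -0.13 and *Pde4b* -0.18. *Pde4b* was also -0.016 with DESeq2 and with its size factors, -0.0014 with no filter and -0.037 with a term for the kind of culture, and *Prkaca* was 0.024 without control 3 and GDNF 6. When each culture was left out in turn the lowest and highest values were -0.13 and 0.56 for *Adcy7*, -0.29 and 0.012 for *Pde11a*, -0.56 and 0.065 for *Pde1a*, -0.15 and 0.99 for *Pde3a*, -0.19 and 0.33 for *Pde4b*, -0.071 and 0.12 for *Prkacb*, -0.27 and 0.059 for *Prkar1b*, and -0.11 and 0.089 for *Prkar2a*. The cause of these changes was not tested. Members under 1 TPM are limited by their counts.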
